A study of Mus musculus with 2 samples.

Results

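Rag1, Rag2 and Dntt are the 3 genes that start and diversify antigen receptor rearrangement, and their transcripts were measured in the thymus of newborn mice. They were taken by name and found by gene identifier: all 3 were present among the 43346 genes of each table. Total RNA came from 2 pups of 1 pregnant female of strain B6NCrl at postnatal day 0, with both thymus lobes of a pup in 1 library, so the 2 littermates form the only group. No treatment, mutant allele or other tissue is listed, and sex was not collected. From each pup 10 ng of RNA, extracted by the mirVana method, entered the library, and spike-in RNA was added.

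The products of Rag1 and Rag2 form the recombinase that cuts DNA beside the V, D and J segments of antigen receptor genes. Rag1 supplies the catalytic centre, and Rag2 is its essential partner, whose PHD finger binds a histone mark of active chromatin. Dntt encodes terminal deoxynucleotidyl transferase, a DNA polymerase that adds bases without a template at the junctions before they are sealed. Such added bases are known to be scarce in receptors made before birth in mice. In the thymus the recombinase is used first at the double-negative stage for the beta, gamma and delta chains and again at the CD4 CD8 double-positive stage for the alpha chain.

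Rag1 and Rag2 are neighbours that face each other on chromosome 2. In GRCm38 (mm10), Rag1 (ENSMUSG00000061311) lies on the minus strand at 101638282 to 101649501 and Rag2 (ENSMUSG00000032864) on the plus strand at 101624718 to 101632529, with 5752 bases between their 3' ends. Each keeps its whole coding region in 1 exon, of 1040 codons in Rag1 and 527 in Rag2. Dntt (ENSMUSG00000025014) lies on the plus strand of chromosome 19 at 41029275 to 41059525 and no annotated gene overlaps it.

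The region before each start is shown because levels and start sites of these genes are compared below. Each line is the 250 bases upstream of the RefSeq start (GRCm38.p6), 5' to 3' on the gene's strand, with matches to the searched motifs in capitals (matches after the start are not shown). The intervals are chr2:101649533-101649782 for Rag1, chr2:101624462-101624711 for Rag2 and chr19:41029025-41029274 for Dntt.
Rag1: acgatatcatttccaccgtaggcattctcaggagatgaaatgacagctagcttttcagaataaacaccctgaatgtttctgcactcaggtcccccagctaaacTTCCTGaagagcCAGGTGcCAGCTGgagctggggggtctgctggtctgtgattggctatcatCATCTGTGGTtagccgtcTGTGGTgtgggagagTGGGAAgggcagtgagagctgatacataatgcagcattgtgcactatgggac
Rag2: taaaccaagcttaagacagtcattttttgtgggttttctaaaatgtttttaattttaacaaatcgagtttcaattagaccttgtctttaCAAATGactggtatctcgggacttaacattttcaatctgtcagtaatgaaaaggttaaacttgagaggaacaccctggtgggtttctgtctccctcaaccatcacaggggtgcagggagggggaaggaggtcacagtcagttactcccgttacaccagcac
Dntt: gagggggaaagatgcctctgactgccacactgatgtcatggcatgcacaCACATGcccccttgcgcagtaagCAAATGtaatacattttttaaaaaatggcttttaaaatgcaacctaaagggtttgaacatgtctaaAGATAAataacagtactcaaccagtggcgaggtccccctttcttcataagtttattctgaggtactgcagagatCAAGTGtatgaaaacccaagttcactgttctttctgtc

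The 3 start regions shared few short motifs. Both strands of the 300 bases from 250 before to 50 after each start were searched for 8 motifs. These were the TATA box as TATAAA, the E box of E proteins as CANNTG, the Runx motif as TGTGGT, the GATA motif as AGATAA, the Ikaros motif as TGGGAA, the forkhead motif as TGTTTAC, the motif of Tcf and Lef factors as CTTTGA and the Ets motif as CAGGAA. The E box was the motif present in all 3, with 4 matches at Rag1, 2 at Rag2 and 3 at Dntt. Of the 32851 promoters searched, 72.3% held at least 1 and 39.6% held 2 or more. Rag1 held 2 Runx matches, at positions -81 and -67 counted from the start, where 1.81% of promoters held 2 or more. The first of them overlaps the end of the E box at -85. Rag1 also held the Ikaros motif at -52 and, on the opposite strand, the Ets motif at -147, and these motifs occurred in 25.6% and 30.6% of promoters. Dntt held the GATA motif at -112, found in 11.2% of promoters. The TATA box, forkhead and Tcf motifs were in none of the 3 windows, and they occurred in 13.6%, 3.65% and 16.0% of promoters. GC content was 50% at Rag1, 43% at Rag2 and 42.3% at Dntt, against a median of 52.7% over all promoters. A match describes letters in these windows and is not a measured binding site.

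Depth was 39045711 expected counts for genes in replicate 1 and 41576378 in replicate 2, where an expected count is an estimated number of reads. A gene was called detected at 1 TPM or more in both libraries, and 13957 genes were, 12309 of them protein-coding. TPM is an abundance relative to transcript length and to the whole library, so it can be compared between genes. Double-positive thymocyte markers were high: all 6 were detected, from Cd4 at 84.1 to Cd8b1 at 1041 TPM (means of 2 libraries). The list is not exclusive to that stage, since its Cd3e encodes a CD3 chain of T cells in general. The median of detected protein-coding genes was 17.3 TPM. All 5 epithelial and all 4 macrophage markers were detected too, so detection alone does not identify the cells. In bulk tissue, fewer cells of a type and less RNA per cell cannot be told apart.

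Rag1 was the most abundant of the 3 genes. Replicate 1 gave 262.6 TPM (50405 counts) and replicate 2 gave 279.1 TPM (57797 counts), a mean of 271 ± 11.7 TPM (SD, n = 2). As a share of reads, it took 1291 CPM (counts scaled to the library total, 95% Wilson interval 1280 to 1302, for counting error only) in replicate 1 and 1390 (1379 to 1402) in replicate 2. The intervals do not meet, so depth did not limit the comparison of these libraries for Rag1. Its level exceeded 95.6% and 95.8% of detected protein-coding genes in replicates 1 and 2, at ranks 538 and 512 among them.

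Dntt and Rag2 lay close together at a lower level. Dntt had 107.8 and 117.6 TPM from 6271 and 7393 counts, a mean of 113 ± 6.97 TPM (SD, n = 2). Rag2 had 93.5 and 117.1 TPM from 6712 and 8861 counts, a mean of 105 ± 16.7 TPM (SD, n = 2). Dntt was above Rag2 in both libraries by TPM, at a ratio of 1.15 in replicate 1 and 1.00 in replicate 2, a difference smaller than the spread of Rag2 between pups. By read counts the order turned, at a ratio of Dntt to Rag2 of 0.934 and 0.834, since the mean length assigned to Rag2 is greater. Among detected protein-coding genes, the percentiles in replicates 1 and 2 were 86.4 and 89.2 for Rag2 and 88.2 and 89.3 for Dntt.

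Transcripts of the 2 recombinase subunits were not equally abundant. Rag1 exceeded Rag2 by 2.81 times in replicate 1 and 2.38 times in replicate 2 on the TPM scale, a mean ratio of 2.60 ± 0.301 (SD, n = 2). By read counts the ratio was 7.51 and 6.52, because the annotated Rag1 transcript of 6608 bases is longer. Rag1 exceeded Dntt by 2.44 and 2.37 times in TPM. The ratio of Rag1 to Dntt was thus closer between the pups than that of Rag1 to Rag2.

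**Figure D1:**
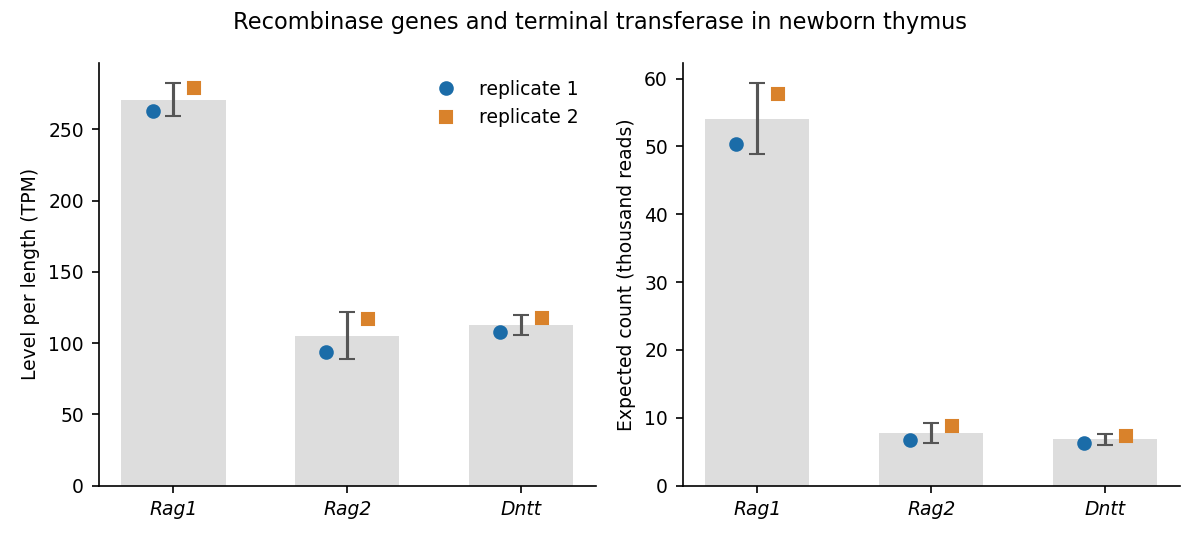
Level per length in TPM (left axis) and expected count (right axis) of Rag1, Rag2 and Dntt, with bars for the mean, error bars for the SD of 2 libraries and a point for each replicate. Rag1 stands at 262.6 and 279.1 TPM, while Rag2 and Dntt lie between 93.5 and 117.6 TPM, and replicate 2 is the higher point for each gene.

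All 3 genes were higher in replicate 2, none of them over 2-fold. Log2 ratios of replicate 2 over replicate 1, from counts scaled with edgeR's TMM factors, were 0.12 for Rag1 (95% counting interval 0.10 to 0.14), 0.33 for Rag2 (0.28 to 0.37) and 0.16 for Dntt (0.11 to 0.21). The interval of Rag2 lies above those of the other genes. Of 14155 genes with a mean count of at least 50, 193 differed over 2-fold, a background of 1.36%, and 0 of the 3 members did. The median ratio of all tested genes was 0.01, with 51.5% of them above 0, and their median absolute ratio 0.13. Against that, the absolute ratio of Rag1 was larger than that of 47.2% of genes, of Dntt 58.2% and of Rag2 83.7%. With 1 library per pup these values compare 2 libraries and have no replicate check. Scaled on the spike-ins (659 and 427 counts) instead of on genes, the ratio of Rag2 was 1.03, which is past 2-fold, that of Rag1 0.82 and that of Dntt 0.86, so the ratios are relative to the bulk of genes.

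**Figure D2:**
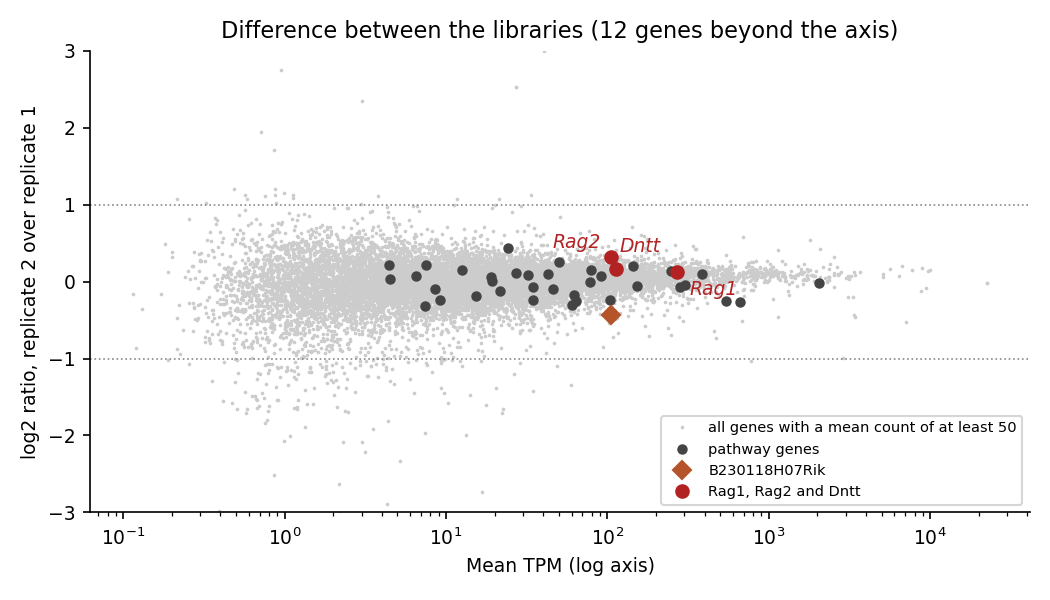
Log2 ratio of replicate 2 over replicate 1 against mean TPM (log axis) for genes with a mean count of at least 50 (grey), the pathway genes (black), B230118H07Rik (diamond) and the 3 members (red), with dotted lines at 2-fold and 12 genes beyond the axis. The members sit above 0, at 0.12, 0.33 and 0.16, and B230118H07Rik sits below it, at -0.43.

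Of the 6 double-positive markers, 5 were also higher in replicate 2, beside 51.5% of all tested genes. Of the 6, 0 differed over 2-fold, beside 1.36% of all tested genes. Their log2 ratios ran from -0.21 for the chemokine receptor Ccr9 to 0.28 for Cd3e, with a median of 0.13 and a summed level of 2436 and 2515 TPM in replicates 1 and 2. Early thymocyte markers summed to 195.6 and 194.7 TPM and single-positive markers to 159.8 and 172.6 TPM. The 5 epithelial markers ranged from the keratin Krt5 at -0.04, through Aire at 0.12 and Prss16 at 0.14, to the thymoproteasome subunit Psmb11 at 0.55 and the regulator Foxn1 at 0.60. Their median was 0.14, and the list summed to 713.5 and 780.0 TPM. The part of these marker differences in the ratios of Rag1, Rag2 and Dntt was not tested.

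Dntt was represented almost wholly by its short form. Dntt-202 carried 93.2% and 89.6% of the gene's TPM in replicates 1 and 2, and Dntt-201 carried 6.77% and 10.4%, a mean of 8.57% ± 2.54 (SD, n = 2). Dntt-201, of 12 exons, contains as exon 11 a stretch of 60 bases (chr19:41058567-41058626), which adds 20 codons, for 530 codons against 510. The deposited lengths of both forms differ by the same 60 bases. The exon is printed in capitals between 15 bases of each neighbouring coding exon, from the GENCODE M21 transcript sequence (GRCm38), followed by the junction of the short form.
Dntt-201: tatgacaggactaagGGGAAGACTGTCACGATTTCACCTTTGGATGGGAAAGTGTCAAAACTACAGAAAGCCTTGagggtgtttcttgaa
Dntt-202: tatgacaggactaagagggtgtttcttgaa

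The amount of the long form was the least certain of these estimates. Dntt-201 was assigned 437 and 787 counts, with a deposited standard deviation of read assignment of 69.2 and 89.2 counts. Its TPM was 7.30 in replicate 1 and 12.2 in replicate 2. The deposited intervals of TPM lie around a second deposited estimate, and their level is not stated. They ran from 5.24 to 9.77 and from 9.49 to 15.2 TPM and overlap, so a difference in the long form between pups was not resolved. The level of Dntt-202 was 100.5 and 105.5 TPM.

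Rag2 was divided over 2 transcripts with the same coding region. The short one (ENSMUST00000111227), of 1857 bases, took 56.9% and 60.5% of the gene's TPM, a mean of 58.7% ± 2.55 (SD, n = 2). The long one (ENSMUST00000044031), of 3424 bases, has an added noncoding exon of 63 bases and a 3' end 1476 bases farther along. It took 43.1% and 39.5% of TPM, but the larger part of the reads, 58.9% and 55.3%. Both were higher in replicate 2, the short one at 53.2 and 70.8 TPM and the long one at 40.3 and 46.3 TPM. The deposited intervals did not overlap between pups for the short transcript (48.8 to 55.6 and 65.9 to 73.5 TPM) or the long one (37.7 to 41.5 and 43.5 to 47.7 TPM). Against the short Rag2 transcript alone, Rag1 was 4.44 times as abundant. Rag1 has 1 annotated transcript, to which all its reads were assigned.

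**Figure D3:**
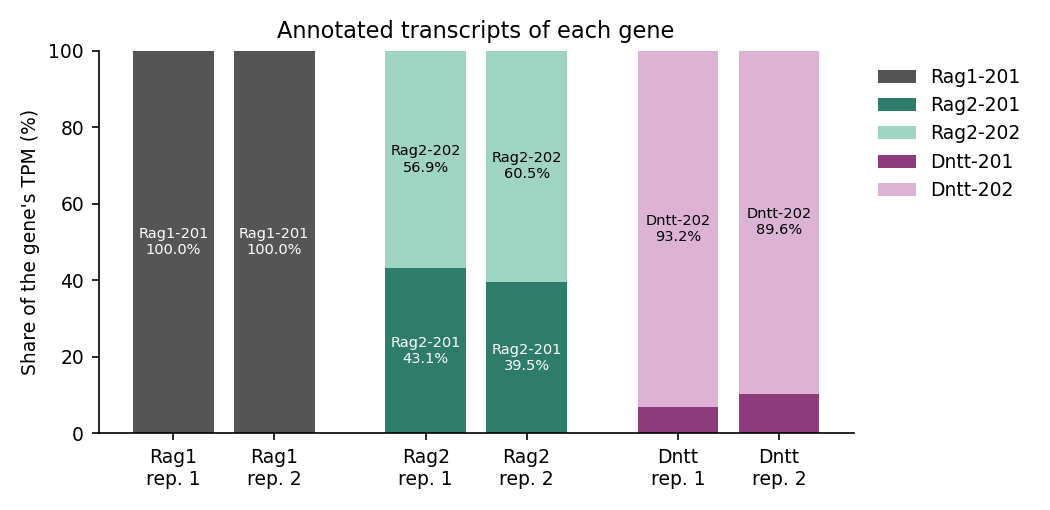
Share of each gene's TPM (percent axis) by annotated transcript, with 1 bar for each gene and replicate. Rag1 has 1 form, the short transcript takes 56.9% and 60.5% of Rag2, and Dntt-202 takes 93.2% and 89.6% of Dntt.

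Another gene overlaps both recombinase genes. B230118H07Rik, a protein-coding gene on the minus strand of chromosome 2 (101560781 to 101649532), spans Rag2 and Rag1. It had 119.7 and 90.1 TPM in replicates 1 and 2, a mean of 105 ± 20.9 TPM (SD, n = 2). Of its 12 transcripts in the tables, 3 start at the base that RefSeq gives as the start of Rag1, 31 bases before the Rag1 start in GENCODE M21. These held 73.6% and 73.8% of the gene's TPM, at 88.1 and 66.5 TPM, all of it in B230118H07Rik-209 (70.1 and 49.2 TPM) and B230118H07Rik-208 (17.9 and 17.3 TPM). Their first exon holds all 80 bases of the first exon of Rag1 and ends at the same base, so the start region printed for Rag1 is also theirs. In TPM they amounted to 33.5% and 23.8% of Rag1.

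Transcripts of B230118H07Rik that start elsewhere were lower. The 4 that start inside Rag2 summed to 6.70 and 2.50 TPM, 5.60% and 2.77% of the gene. B230118H07Rik-201, which starts beyond both recombinase genes, had 13.1 and 8.96 TPM. B230118H07Rik-208 has an exon (chr2:101630341-101630548) that lies wholly within the coding bases of Rag2 on the opposite strand. The use of strand in counting is not given in the sources used here, so how reads of Rag2 and of this exon were separated is not known. The deposited standard deviation of read assignment was 0 counts for Rag1 in both libraries and 9.03 and 10.2 counts for Rag2, small beside their totals.

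The overlapping gene went the other way between the pups. Its log2 ratio was -0.43, lower in replicate 2, where Rag1 and Rag2 were higher at 0.12 and 0.33. Other neighbours were far lower than the members. On chromosome 2, Traf6, which encodes a signalling ubiquitin ligase, had 11.1 and 12.5 TPM, Prr5l 4.04 and 3.68 TPM and the pseudogene Gm20693 0.30 and 0.28 TPM. Beside Dntt, Blnk, a B-cell adaptor gene, had 4.53 and 3.93 TPM, Opalin 0.10 and 0.07 TPM and Tll2 0.06 and 0.12 TPM.

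**Figure D4:**
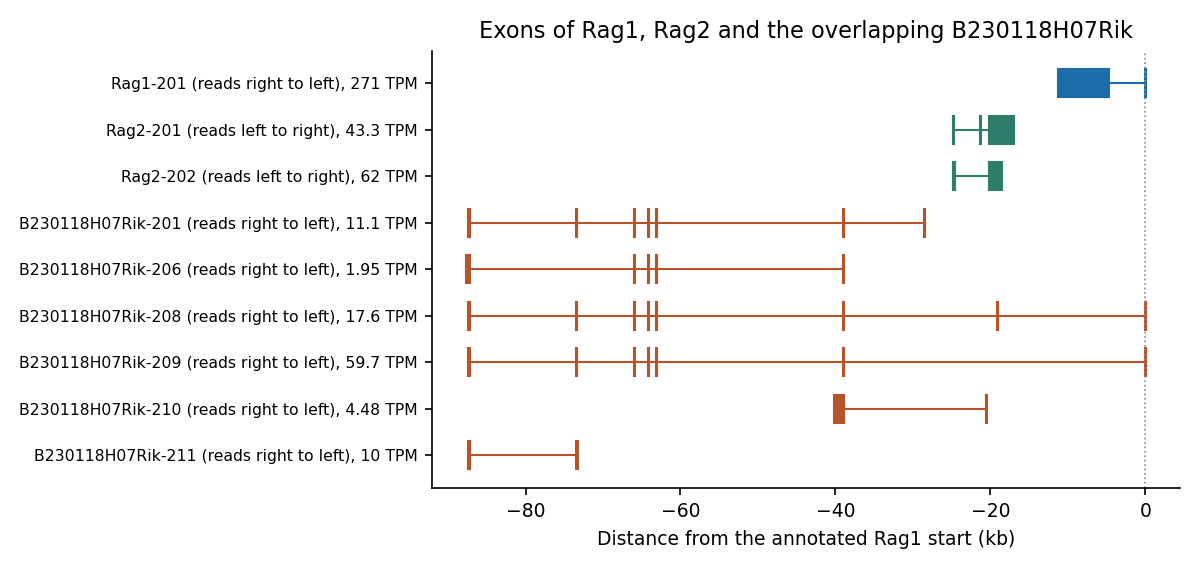
Exons (boxes) and introns (lines) of Rag1, Rag2 and the B230118H07Rik transcripts above 1 TPM, against distance from the annotated Rag1 start in kb, with the direction of transcription and the mean TPM of 2 libraries beside each name. B230118H07Rik-208 and B230118H07Rik-209, at 17.6 and 59.7 TPM, begin at the Rag1 start, and an exon of B230118H07Rik-208 falls inside Rag2.

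Among the template-using relatives of terminal transferase, none reached its level. Dntt belongs to the X family of DNA polymerases. Polb, the base excision repair polymerase, had 46.4 and 53.8 TPM, which puts Dntt 2.25 times above it. Polm and Poll, which fill gaps during end joining, had 7.19 and 7.87 TPM and 4.18 and 4.72 TPM. Dntt exceeded Poll by 25.3 times. Their log2 ratios between pups, 0.25, 0.22 and 0.21, were near that of Dntt.

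The other pathway genes were all detected. Most lay below the members, though a smaller share than of all detected protein-coding genes. Of 37 genes in the 5 pathway lists, without the members, 26 were below Rag2 in both libraries and 31 below Rag1. Among detected protein-coding genes, Rag2 exceeded 86.4% and 89.2% and Rag1 95.6% and 95.8% in replicates 1 and 2. The median of the 37 was 46.3 TPM against 17.3 TPM for all detected protein-coding genes. The 5 genes above Rag1 in both libraries were Hmgb1 and Hmgb2, DNA-bending proteins that assist the recombinase, the end-binding subunit Xrcc6 (Ku70), the histone gene H2afx and the chromatin organizer Satb1. Between the pups 17 of the 37 were higher in replicate 2 and 20 lower, where 51.5% of all tested genes were above 0. None of the 37 differed over 2-fold, beside 1.36% of all tested genes, a share too small to set the pathway apart.

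Partners and turnover genes of the recombinase held the highest value of the pathway. Hmgb1 stood at 2058 ± 33.9 TPM and Hmgb2 at 546 ± 76.1 TPM (SD, n = 2). Rag2 protein is known to be removed at entry into S phase after phosphorylation by cyclin A with Cdk2 and recognition by Skp2. Ccna2 had 136.8 and 151.0 TPM, Cdk2 89.6 and 92.6 TPM and Skp2 26.7 and 27.9 TPM, and the kinase inhibitor Cdkn1b had 48.6 and 44.0 TPM. Dcaf1, a ubiquitin ligase subunit that binds Rag1, had 9.73 and 7.23 TPM.

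The factors that close and sense the breaks were mostly much lower than the recombinase, as were most detected protein-coding genes. Rag2 exceeded 86.4% and 89.2% of detected protein-coding genes in replicates 1 and 2, and the median of all of them was 17.3 TPM. In the end joining list, 9 of 10 genes were below Rag2 in both libraries, and the list median was also 17.3 TPM. Xrcc6 was the exception at 303 ± 17.1 TPM (SD, n = 2), while its partner Xrcc5 (Ku80) had 42.0 and 43.9 TPM. The hairpin-opening nuclease Dclre1c (Artemis) had 17.2 and 13.5 TPM, its kinase Prkdc 6.46 and 6.64 TPM, the ligase Lig4 31.6 and 32.9 TPM and its partner Xrcc4 19.3 and 19.2 TPM. Nhej1 and Paxx, accessory factors, had means of 12.6 and 64.3 TPM. Rag1 thus exceeded Dclre1c by 17.6 times and Prkdc by 41.3 times. In the break response list, 6 of 7 genes were below Rag2. H2afx stood at 385 TPM on average, and the kinase Atm, Trp53bp1, Mdc1, Mre11a, Rad50 and Nbn ranged from 4.49 to 34.8 TPM.

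Transcription factors tied to the recombinase genes were all detected, with means from 7.44 to 668 TPM. Of 12 genes in the list, 10 had a log2 ratio below 0 and 2 above it (Ikzf1 at 0.15 and Lef1 at 0.14), where 51.5% of all tested genes were above 0. Their median was -0.21 beside 0.01 for all genes, and 0 differed over 2-fold, beside 1.36% of all tested genes. Satb1, which organizes the locus in thymocytes, had 736.0 and 599.6 TPM, and Bcl11b, a T-lineage commitment factor, 124.5 and 89.2 TPM. Ets1, Lef1 and Myb stood at 280, 248 and 153 TPM on average, the E proteins Tcf12 and Tcf3 at 103 and 78.2, and Ikzf1, Gata3, Foxp1 and Runx1 at 79.1, 62.3, 60.7 and 34.3 TPM. Foxo1, which is known to drive the recombinase genes in B-cell precursors, was lowest at 8.35 and 6.53 TPM. Any link between these levels and those of Rag1, Rag2 and Dntt was not tested.

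**Figure D5:**
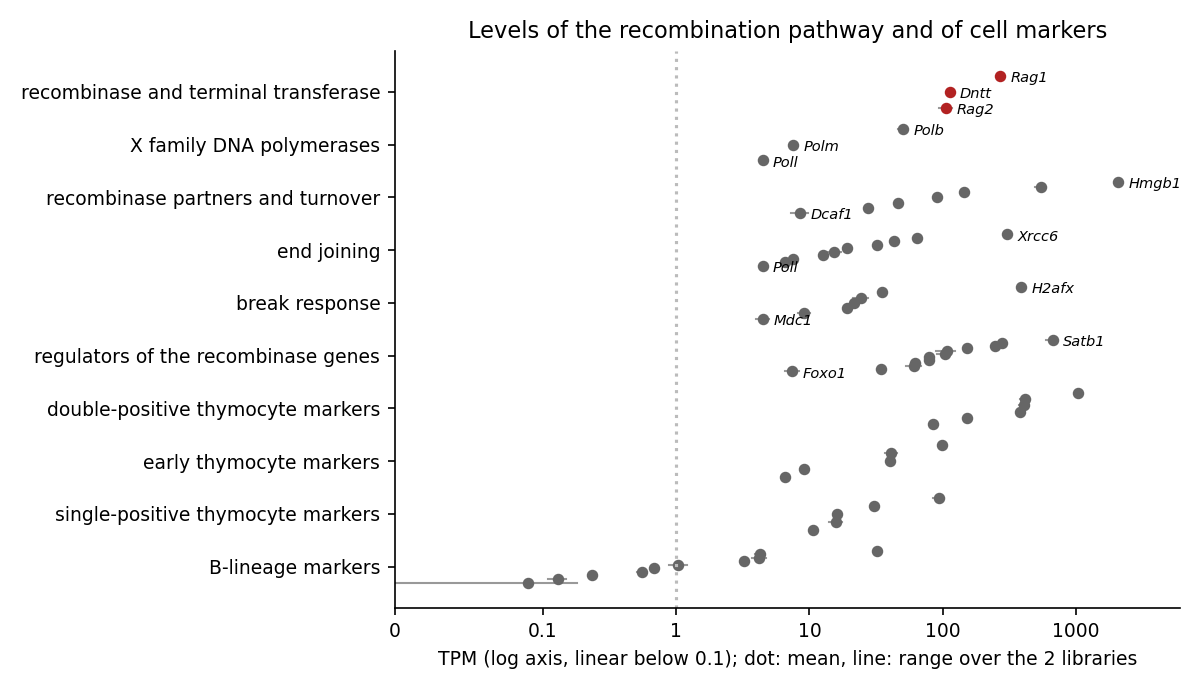
TPM (log axis, linear below 0.1) of the members (red), the pathway lists and cell marker lists (grey), 1 point per gene for the mean and a line for the range over 2 libraries, with the ends of the pathway lists named. The members lie between 105 and 271 TPM, above the median of 17.3 TPM of end joining and above all 10 B-lineage markers.

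Markers of B-lineage cells, the other cells that use these genes, were mostly low. Of 10 B-lineage markers 4 were detected, beside 13957 of all 43346 genes. All 10 lay below Rag2 in both libraries, where Rag2 exceeded 86.4% and 89.2% of detected protein-coding genes. Ms4a1 had 0.24 and 0.23 TPM and Pax5 0 and 0.18 TPM from 0 and 3 counts. A count of 0 allows up to 3 counts, or 0.0768 CPM in replicate 1. The surrogate light chain genes Igll1 and Vpreb1, expressed by B-cell precursors, had 0.51 and 0.59 TPM and 3.72 and 4.71 TPM. The highest was Cd79b at 31.7 and 32.9 TPM, while its partner Cd79a had 1.20 and 0.88 TPM. Summed over the list, the level was 46.0 and 47.4 TPM. Macrophage markers summed to 104.2 and 115.6 TPM and mesenchyme and endothelium markers to 110.7 and 116.7 TPM. The globins Hbb-bs and Hba-a1 made up nearly all of the erythroid sum of 1360 and 1248 TPM.

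Compared with the stages of thymocyte development, the members lay between the lists. Early markers ranged from Kit at 6.59 to Ptcra, the pre-receptor alpha chain, at 98.4 TPM, and 4 of the 5 were below Rag2 in both libraries. Ptcra, at 97.1 and 99.8 TPM, was above Rag2 in replicate 1 and below it in replicate 2. Il2ra (CD25), which marks the stage of beta-chain rearrangement, had 37.9 and 42.4 TPM. In the double-positive list, Cd8b1, Ccr9, Cd8a and the general T-cell gene Cd3e were above Rag1 in both libraries, and Cd4 was below it. All 5 single-positive markers were below Rag2 in both libraries, among them the egress receptor S1pr1 at 10.6 and the chemokine receptor Ccr7 at 30.4 TPM. Which cells made the transcripts of Rag1, Rag2 and Dntt was not resolved in bulk tissue.

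The protein-coding genes nearest in level over the 2 libraries, by distance of log2(TPM + 1), were of varied kinds. For Rag1 they were Anxa5, Myl12b and Ndufs7, for Dntt Chmp5, Ppih and Zfand6, and Mrps15 and Psat1 were among the 3 for Rag2. The nearest gene to Rag1, Anxa5, had 263.3 and 277.9 TPM. With 2 libraries, likeness means a similar level in each and nothing more.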

How the data were processed

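Total RNA of newborn thymus was measured in 2 libraries, 1 per pup. For each, the authors deposited a gene and a transcript table of expected counts (estimated, not normalized), TPM, FPKM and, for transcripts, the percent of a gene's TPM. Intervals of TPM and standard deviations of counts were deposited too and treated as a score with no stated level. Per the labels, reads were placed on mm10, and the read-me texts deposited with the tables name annotation M4. No aligner, quantifier or strand setting is given in the sources used here.

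Symbols and coordinates came from GENCODE M21 (GRCm38) by identifier without version, which matched 42462 of 43346 genes. Rows that name no gene (26345, spike-ins included) held 0.00179% and 0.00107% of counts and were left out. Scaling used edgeR 4.0.16 (TMM after filterByExpr, counts rounded) in R 4.3.3, with DESeq2 1.42.0 as an alternative. Log2 ratios used a prior count of 0.5 and a 2-fold threshold. Promoters came from RefSeq (GRCm38.p6). The ratio calculation was run on simulated counts with large known changes and known library scaling. That run checks neither small ratios such as those of the members nor the TMM factors. With a single group there was nothing to test between groups, and the spread of littermates holds biological and technical parts.

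Named genes are the members, the pathway and marker lists, neighbours within 100 kb and the 3 genes nearest in level. Values of 4 of these genes are not reported here. Members and lists were chosen with earlier results of these data known. Tables were handled with pandas 2.3.3 and scipy 1.17.1 in Python 3.11.15, and figures drawn with matplotlib 3.10.9.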

Additional observations from a re-analysis of the deposited data

How the results depend on the processing

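Leaving out 1 of 2 replicates returns the other pup's value, so for levels, ratios and shares (16 values) it is no check. Another 3 values could not move by construction (TPM recomputed from counts, and the share of a gene with 1 transcript). Of the other 32 alternative values, 19 moved by less than the spread between replicates (for a log2 ratio its counting interval, for a number of genes 1.5 times) and 13 did not. The 19 include the number of pathway genes detected (37) at 0.5 TPM and with either replicate left out. These were fixed in advance and are no check, since all 37 were already detected at 1 TPM in both libraries. The log2 ratios of the 3 genes at a prior count of 5 are also among the 19. They could hardly move at counts of 6271 or more. Rescaled to protein-coding genes alone, levels were 326 TPM for Rag1, 127 for Rag2 and 136 for Dntt. Scaling on spike-ins moved the log2 ratios to 0.82 (Rag1), 1.03 (Rag2) and 0.86 (Dntt). For Rag1, DESeq2 size factors gave 0.14 and deposited TPM 0.088. All log2 ratios of the 3 genes stayed above 0 under every scaling tried. Taking the highest transcript alone, Rag1 to Rag2 was 4.44 and Dntt to Rag2 1.69, because Rag2 is divided over 2 transcripts. Of reads rather than TPM, the short Rag2 transcript held 42.9%. Genes over 2-fold numbered 193, 854 with a minimum count of 10 and 21 with 500. Depth did not limit the members, but read assignment limited Dntt-201.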
